A study of Rattus norvegicus with 32 samples.

Results

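The small subunit of the cytosolic ribosome is built from 1 ribosomal RNA and a set of proteins, most of which are named RPS. Messenger RNAs of 28 of these proteins, Rps2 to Rps29 with Rpsa and Fau, were followed in the dendrites and the somata of single rat hippocampal neurons. They were chosen by gene symbol, and 28 of 28 were found among the 17216 gene rows of each count table. Gnb2l1, the symbol of the scaffold protein RACK1, also belongs to the subunit and was used as a comparison.

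The dendrites of 16 neurons and the somata of the same 16 neurons gave 1 library each, 32 in all, paired by the number in the label. The neurons came from wildtype Sprague Dawley rats at embryonic day 18, were kept in culture for 15 days and were labelled pyramidal. The dendrites and the soma of a cell were drawn into separate micropipettes, and their polyadenylated RNA was amplified by 3 rounds of in vitro transcription (the aRNA method) before sequencing. Several cultures and days were used, and since the labels do not tie neurons to them, neurons that share a culture cannot be told apart from neurons that do not.

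The small subunit reads the messenger RNA and holds the initiator and decoding sites, while the large subunit joins the amino acids. The mRNAs of ribosomal proteins are short and abundant, and they are a textbook case of coordinated translation. Most begin with a C followed by a run of pyrimidines, the terminal oligopyrimidine or TOP tract. Through this tract, growth signalling by mTORC1 and the RNA-binding protein LARP1 controls how much of them is translated. Ribosomal protein mRNAs have been described among the transcripts of axons and dendrites, far from the nucleolus where most subunits are assembled. Nothing in these counts measures translation, ribosomes or protein.

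The stretches around the annotated transcription start show the tract in members to which the results below return. Each run has 15 bases before the start followed by 15 bases from the start on, read 5′ to 3′ on the strand of the gene, from RefSeq on build GRCr8, which is not the build of the counts (rn6). Capitals mark the tract that covers or lies nearest to the start: a C followed by 5 or more C or T.
Rps7, chr6:50999431-50999460, minus strand: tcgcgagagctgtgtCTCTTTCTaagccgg
Rps18, chr20:4933730-4933759, plus strand: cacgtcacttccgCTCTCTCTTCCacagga
Rps27, chr2:177964592-177964621, minus strand: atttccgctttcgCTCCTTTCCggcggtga
Rpsa, chr8:128728864-128728893, plus strand: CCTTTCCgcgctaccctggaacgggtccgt
Rps3, chr1:163195762-163195791, minus strand: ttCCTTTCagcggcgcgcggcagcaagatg
Rps13, chr1:180009646-180009675, minus strand: gccgtttcctacctcgttCTCTCTTTgctt
Rps15a, chr1:181860270-181860299, minus strand: cggcgttttCTTTCCacagtcaccatggtg
Rps6, chr5:106420526-106420555, minus strand: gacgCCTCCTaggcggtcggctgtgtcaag
Rps16, chr1:92770643-92770672, plus strand: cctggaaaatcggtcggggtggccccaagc
Rps7, Rps18 and Rps27 have the tract at the annotated start itself, Rpsa, Rps3, Rps13, Rps15a and Rps6 have one elsewhere in the window, and Rps16 has none in this window. A promoter window was found for 25 of the 28 members, and Rps20, Rps25 and Rps29 are named only.

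A C at the annotated start with 5 or more pyrimidines after it was found in 7 of 25 members (28%), against 1.61% of all 33469 promoters of the table. Within the 30 bases, a tract at any position occurred in 20 of 25 members (80%), against 21.2% of all promoters. It occurred in 28 of 40 promoter entries of large subunit genes, which were not reduced to 1 entry per gene. Only the strand of the gene was searched, and the annotated start need not be the one used in these neurons. Of 26 promoter entries of members that were checked, 10 had the same start as the gene in RefSeq. The 7 members with the tract at the start had a median log2 fold change, dendrites over soma, of 0.57, and the other 18 had one of 0.73, a description without a test.

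Depth differed widely: dendrite libraries held between 229149 and 24439768 gene counts (median 8842539) and soma libraries between 878125 and 24721811 (median 15629500). No molecular identifiers are named, so intervals on shares cover counting error only. The dendrite library of neuron 20 stood apart, with a TMM scaling factor of 0.159 against 0.659 to 1.76 in the other 31 libraries. Several results that rest on it, but not all, are given with and without it. The pairing rests on the labels: over all tested genes, 5 of 16 dendrite libraries resembled the soma of their own neuron most, and 7 of 16 soma libraries their own dendrites. The dendrites and soma of neurons 7 and 9 matched best across these 2 numbers, and the soma of neuron 8 the dendrites of neuron 9. Neurod6, a transcription factor of excitatory hippocampal and cortical neurons, had at least 10 counts in all 16 dendrite and 16 soma libraries. Slc17a7, the vesicular glutamate transporter of mature excitatory neurons, reached 10 counts in 2 dendrite and 5 soma libraries, Camk2a in 4 and 5, and Gad1, which marks inhibitory neurons, in 11 and 7. Of 13 astrocyte markers, 5 were tested and 5 had a positive fold change (median log2 1.70). Their summed level lay between 50.1 and 2753 CPM in dendrites and between 17.2 and 705 CPM in somata, higher in dendrites in 11 of 16 neurons. The microglia markers Aif1 and Cx3cr1 had 0 libraries with 10 counts. Of 10 microglia markers listed, 5 were at 0 in every library. The 10 together reached 20.2 CPM in dendrites (median 0.050) and 0.20 CPM in somata (median 0). What these transcripts contribute to the subunit values was not tested.

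The first question was how much of each compartment's mRNA coded for the small subunit. The 28 genes together took 1.62% ± 1.22 of the gene counts in dendrites and 1.01% ± 0.495 in somata (SD, n = 16 each). In dendrites the share was 0.519% at its lowest, in neuron 9, 1.43% at the median and 5.92% at its highest, in neuron 20. Somata ran between 0.503% in neuron 8 and 2.48% in neuron 11, with a median of 0.949%. The groups overlapped over most of their range. The share was higher in the dendrites of 13 neurons and higher in the soma of neurons 9, 11 and 18, where dendrites had 0.519%, 0.682% and 0.953% and somata 1.26%, 2.48% and 1.70%.

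Neuron 20 set the spread of the dendrites. Its dendrites had 5.92% (exact binomial 95% interval 5.90 to 5.95) and its soma 1.01%. Without this neuron the shares were 1.34% ± 0.443 in dendrites and 1.01% ± 0.513 in somata (SD, n = 15 each), and the highest dendrite library had 1.997%. In the dendrites of neuron 25, the shallowest library, the interval was 1.80 to 1.91%, so counting error was small beside the differences between neurons. Leaving out the 20 other genes with the most counts gave 1.998% ± 1.64 in dendrites and 1.21% ± 0.590 in somata, again higher in the dendrites of 13 neurons. The paired difference over all 16 neurons, 0.612 ± 1.39 percentage points, was smaller than its SD, and it was not tested. Since a share is relative, more small subunit mRNA and less of other mRNA cannot be told apart.

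**Figure D1:**
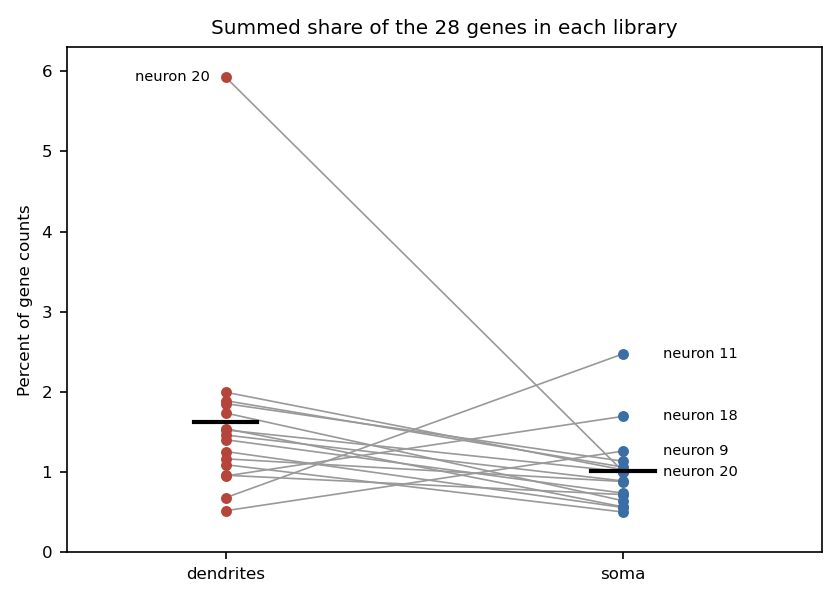
Summed counts of the 28 small subunit genes as percent of the gene counts of a library (vertical axis), in dendrites and in somata. Each point is a library, a line joins the libraries of 1 neuron and the black bar is the mean of 16. The dendrites of neuron 20 lie at 5.92%, above the next dendrite library at 1.997%, and the lines of neurons 9, 11 and 18 are the 3 that end higher in the soma.

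Levels are given as CPM, a gene's counts scaled to the total of gene counts of its library, and not per length, since no transcript or protein lengths were used here. The order of members is therefore one of counts held, and it is the change of that order between compartments that can be read. Rps16, a protein of the subunit's head whose tail reaches the peptidyl site, held the most counts in both compartments. Its CPM was 1076 at the lowest, 2611 at the median and 8192 at the highest in dendrites, against 552, 1448 and 5829 in somata. It took 20.4% ± 7.64 of the subunit's counts in dendrites and 18.3% ± 9.01 in somata, and was the leading member in 13 dendrite and 9 soma libraries. Rps16, Rps23, Rps12, Rpsa and Rps2 together held 52.5% ± 9.45 of the subunit's counts in dendrites and 47.9% ± 8.98 in somata (SD, n = 16 each). They are the first 5 members in the order of dendrites by mean log2 (CPM + 1). In somata Rps3, with 7.21% ± 3.69, stood 4th, above Rpsa and Rps2. The set was picked in dendrites, so its higher share there is no result about the compartments.

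The middle of the order was crowded. Median CPM of 25 members lay at or above 54.7 in dendrites and 43.3 in somata, and of their 800 values 2 were under 10 counts and 1 was at 0. Sorted by mean log2 (CPM + 1), the 28 members form 27 neighbouring pairs, of which 3 in dendrites and 2 in somata differed by more than the SD of their paired difference over libraries. In dendrites these were Rps16 above Rps23 by 1.17 ± 0.79 on the log2 scale, Rps25 above Rps9 by 3.10 ± 1.07 and Rps9 above Rps19 by 1.30 ± 0.94. In somata they were Rps26 above Rps9 by 3.33 ± 1.81 and Rps9 above Rps6 by 1.05 ± 1.04. Other neighbours lay within that spread.

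Rps6, Rps9 and Rps19 stood at the bottom, far under the rest. Rps6 carries the sites that S6 kinase phosphorylates, Rps9 sits on the body near the mRNA entry, and Rps19 of the head is the gene most often mutated in human Diamond-Blackfan anaemia. Of their 96 values, 39 were under 10 counts, 6 were at 0 and the highest was 18.6 CPM. Median CPM was 0.78 in dendrites and 1.15 in somata for Rps6, 5.40 and 3.51 for Rps9, and 1.43 and 0.84 for Rps19. The subunit holds 1 copy of each protein, so these low counts were set beside the genome: RefSeq names 11, 17 and 20 further copies for Rps6, Rps9 and Rps19. That number ran over all members from 4 for Fau to 36 for Rps2 (median 12.5). Under these names, 0 of the copies had a row in the count tables. The names are those of GRCr8 and the counts are on rn6, so a copy with another name there would be missed. The labels and files do not say how reads that match several loci were counted, so the level of each member is uncertain to that extent, and whether it lowered these 3 was not tested.

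**Figure D2:**
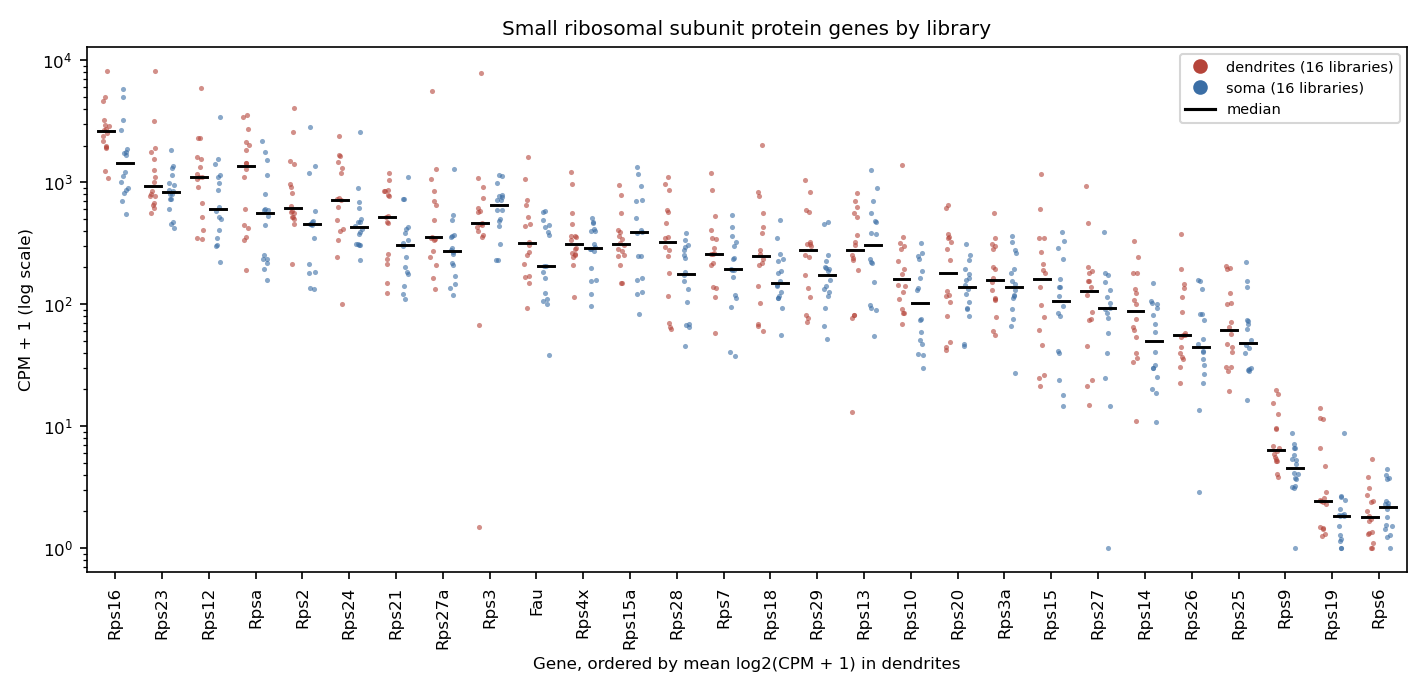
CPM + 1 on a log axis for each of the 28 genes, ordered by the mean log2 (CPM + 1) in dendrites, with 16 dendrite libraries at the left and 16 soma libraries at the right of each gene and a bar at the median. All 28 pairs of groups overlap, and Rps9, Rps19 and Rps6 stay at or under 18.6 CPM.

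The order of the members was much alike in the dendrites and somata. Across the 28 genes the Spearman correlation of the orders was 0.96, a description, since the genes share libraries and their own detection efficiency. Between compartments 23 members were within 2 places of each other, and the largest move was 6 places, by Rps13, which stood 17th in dendrites and 11th in somata. Rps3 stood 9th in dendrites and 4th in somata, and Rps15a 12th and 8th, while Rps28 stood 13th and 17th and Fau 10th and 13th. Since many neighbours lie within their spread, places in the middle of the order are loose.

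The second question was whether single members differed between compartments. In the quasi-likelihood test of edgeR, with the neuron as a block, 0 of 28 members and 0 of 4916 genes (0%) passed an adjusted p of 0.05. At an unadjusted p under 0.05, 129 genes (2.62%) and 2 members were found. DESeq2 called 406 genes and 0 members, and limma-voom called 0 genes. In simulated data with the same libraries the edgeR test called 35.4% of 16-fold and 3.06% of 4-fold changes. The changed genes were drawn from all tested genes, and the simulated means did not differ between neurons. The rates are therefore not those of the members, whose recovery was not simulated. A lack of calls does not show that levels were alike. Each edgeR adjusted p of a member was 0.999.

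Most members pointed the same way without passing the test. The log2 fold change, dendrites over soma, was above 0 for 25 of 28 members, against 54.8% of all tested genes, and its median was 0.64 (quartiles 0.41 and 0.78), against 0.13 over all tested genes. Members ran between -0.54 and 1.17, with SE between 0.34 and 0.95. Without Rps6, Rps9 and Rps19 the median was 0.63 and 23 of 25 were above 0. Being higher in dendrites in at least 12 of 16 neurons held for 9 members and for 3.56% of all tested genes, where neurons are counted on TMM-scaled log2 CPM here and below. These members share libraries and move together, as given further on, so their counts are not independent of each other.

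Among proteins of the head, 11 of 12 fold changes were above 0, with a median of 0.66 and a range from -0.54 to 1.14. Rps16 had a log2 fold change of 0.80 ± 0.34 (SE), was higher in dendrites in 13 of 16 neurons, and had the smallest unadjusted p of the members (edgeR p = 0.0288, adjusted p = 0.999, exact sign-flip permutation p = 0.0216, adjusted p = 0.865). Without neurons 20 and 25 its exact sign-flip permutation p was 0.0535. Rps12, a protein of the head's beak, had 341, 1097 and 5875 CPM at the lowest, median and highest in dendrites, against 219, 601 and 3451 in somata. Its fold change was 0.73 ± 0.47 (11 of 16 neurons, edgeR p = 0.129, adjusted p = 0.999). Rps28, at the mRNA exit, had 62.0, 320 and 1097 CPM in dendrites, against 44.6, 177 and 384 in somata. Values of Rps28 in 12 of 16 dendrites were above those of the soma of the same cell, with a fold change of 0.84 ± 0.61.

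Further head proteins had fold changes of the same size. Rps10, beside the mRNA entry, gave 0.74 ± 0.59, and Rps27a, which is made as a fusion with ubiquitin, gave 0.70 ± 0.46, both higher in dendrites in 12 of 16 neurons. Rps29 (0.63 ± 0.57), Rps18 (0.58 ± 0.50), Rps15 (0.57 ± 0.79), Rps20 (0.50 ± 0.66) and Rps25 (0.31 ± 0.81) lay lower, and Rps19 gave 1.14 ± 0.95 on few counts. Single neurons weighed here too, with 0.35 for Rps15 without neuron 7, 0.32 for Rps20 without neuron 27 and 0.14 for Rps25 without neuron 15. Rps3, at the mRNA entry and also known as a DNA repair endonuclease, was the one head member below 0, with -0.54 ± 0.58, higher in dendrites in 6 of 16 neurons, and -0.31 without neuron 14.

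Body and platform proteins had 14 of 16 fold changes above 0, with a median of 0.61 and a range from -0.36 to 1.17. Rpsa, known also as a laminin receptor, had the highest fold change of all members, 1.17 ± 0.53 (SE, edgeR p = 0.0360, adjusted p = 0.999). Its CPM was 191, 1358 and 3528 at the lowest, median and highest in dendrites, against 156, 559 and 2168 in somata, higher in dendrites in 13 of 16 neurons. Rps2, at the entry of the mRNA channel, was also higher in dendrites in 13 of 16 neurons, with 214, 612 and 4067 CPM in dendrites, against 132, 454 and 2847 in somata, and a fold change of 0.91 ± 0.51 (edgeR p = 0.0840, adjusted p = 0.999). Rps23, which reaches into the decoding centre, had 554, 922 and 8123 CPM in dendrites, against 421, 824 and 1838 in somata, and a fold change of 0.44 ± 0.35 (12 of 16 neurons). Ranges overlapped between compartments for each of these genes and for 28 of 28 members.

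The rest of the body and platform gave fold changes from 0.87 ± 0.87 for Rps9 and 0.86 ± 0.84 for the platform protein Rps14 down to 0.02 ± 0.46 for Rps15a. Rps9 was the second member with a sign-flip p under 0.05 (exact p = 0.0405, adjusted p = 0.865), with under 10 counts in 5 dendrite and 2 soma libraries. For comparison, 264 of all tested genes (5.37%) passed that unadjusted level. The mean paired difference of Rps9 was 1.07 on the log2 scale, with 5.26 in neuron 20 and 6.03 in neuron 25, whose soma had 0 counts of it. Without these neurons the mean was 0.42 (exact sign-flip p = 0.162). Rps21 (0.78 ± 0.51), Rps24 (0.74 ± 0.48), Rps26 (0.65 ± 0.80), Fau (0.64 ± 0.49), Rps7 (0.57 ± 0.52), Rps27 (0.46 ± 0.83), Rps4x (0.32 ± 0.48) and Rps3a (0.26 ± 0.59) lay between. Fau is made as a fusion with a ubiquitin-like protein, and Rps4x is X-linked. Leaving out 1 neuron lowered some of these fold changes by more than 1.5 times, to 0.21 for Rps27 without neuron 28, 0.13 for Rps3a without neuron 14 and 0.20 for Rps4x without neuron 20. Rps13 (-0.13 ± 0.54) and Rps6 (-0.36 ± 0.75, or -0.14 without neuron 20) were below 0.

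**Figure D3:**
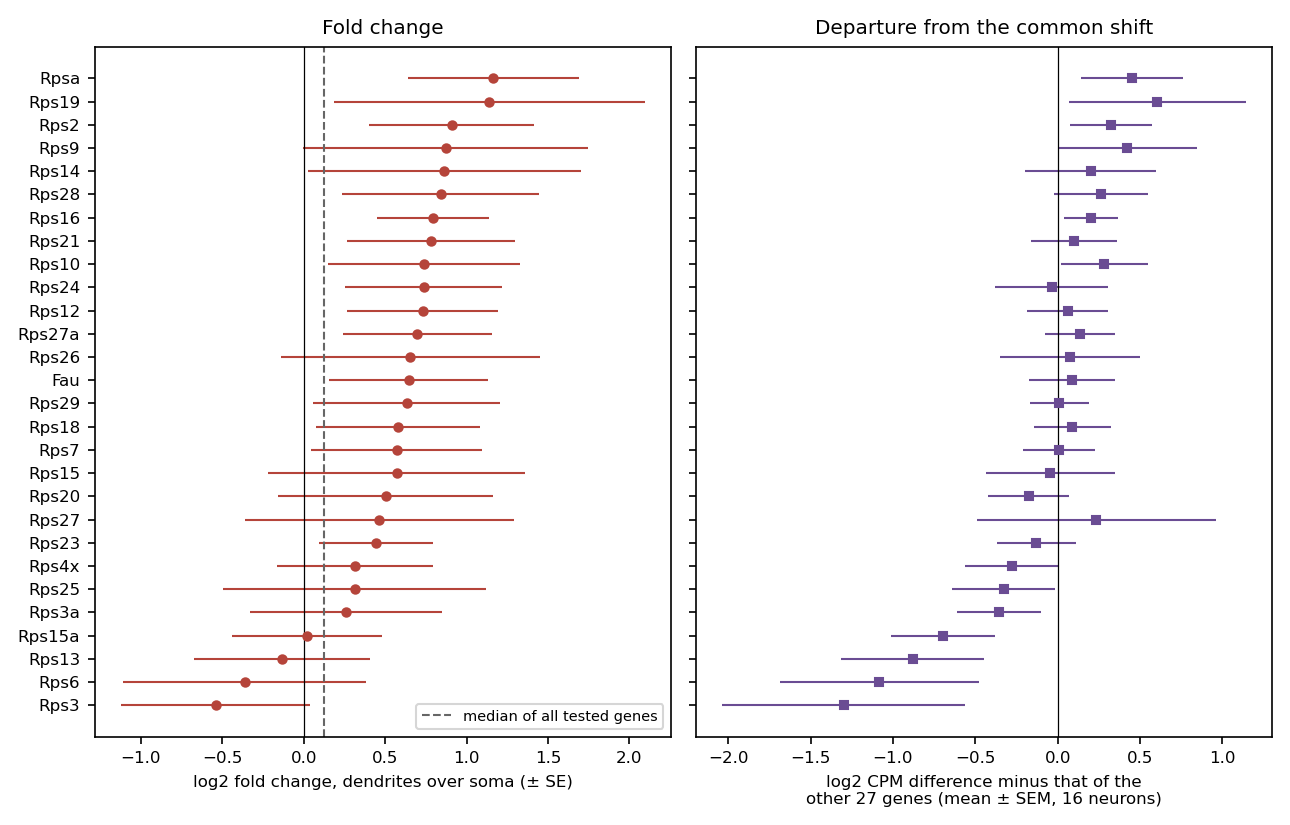
For each gene, the left panel gives the edgeR log2 fold change, dendrites over soma, with its SE and the median of all tested genes (0.13) as a dashed line. On the right is the departure, the paired log2 CPM difference minus the median of the other 27 genes in the same neuron (mean ± SEM over 16 neurons). Rpsa lies highest at the left with 1.17, and Rps3, Rps6, Rps13 and Rps15a lie lowest in both panels.

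The third question was which members departed from the shift that the subunit shared. For each neuron the median paired difference of the other 27 members was taken off, and the rest was tested with an exact sign-flip permutation test. The adjusted p was under 0.05 for 0 members and 0 genes of 4916 (0%). At the unadjusted level 2 members and 358 genes (7.28%) passed, and 69.8% of all genes had a negative departure, with a median of -0.56 on the log2 scale. The edgeR fit with the summed subunit as library size gave 0 members at an unadjusted p under 0.05 (lowest p = 0.186), with fold changes between -0.91 and 0.55.

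The members with the most negative departures were Rps3, Rps6, Rps13 and Rps15a. Rps3 departed by -1.30 ± 2.95 (SD, 16 neurons, positive in 4, exact p = 0.0616, adjusted p = 0.678). Rps6 departed by -1.08 ± 2.42 (positive in 5, exact p = 0.0864, adjusted p = 0.692), with under 10 counts in 10 dendrite and 6 soma libraries. For Rps13 the departure was -0.88 ± 1.73 (positive in 2 of 16, exact p = 0.0387, adjusted p = 0.660), and for Rps15a it was -0.69 ± 1.26 (positive in 4 of 16, exact p = 0.0287, adjusted p = 0.646). At the other end, Rps19 departed by 0.61 ± 2.15 (positive in 9 of 16, exact p = 0.283), or 0.31 without neuron 25 and 0.30 without neuron 26, whose somata had 0 counts of it. Rpsa departed by 0.45 ± 1.24 (positive in 12 of 16, exact p = 0.167).

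Single libraries carried part of these departures. Rps3 had 6 counts (0.49 CPM) in the dendrites of neuron 14 and 10998 counts (484 CPM) in its soma, and in neuron 20 it had its highest value, 7935 CPM, in dendrites. Over the group, Rps3 had a median of 459 CPM in dendrites, and its soma values ran between 230 and 1140 CPM (median 653). Without neuron 14 the departure of Rps3 was -0.67, and without neuron 20 it was -1.57. Rps13 had 13 counts (12.1 CPM) in the dendrites of neuron 22 and 8319 counts (381 CPM) in its soma, and without that neuron its departure was -0.54. Rps6 departed by -0.65 without neuron 20. Over the group, Rps13 had 12.1, 278 and 822 CPM at the lowest, median and highest in dendrites, against 54.0, 305 and 1249 in somata.

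For Rps15a neuron 20 weighed most: its difference there was 0.27 on the log2 scale, against a median of 4.56 over the members, and without that neuron its departure was -0.46 (exact sign-flip permutation p = 0.0573). Over the group, Rps15a had 148, 309 and 953 CPM at the lowest, median and highest in dendrites, against 82.5, 388 and 1344 in somata, so the dendrites lay inside the range of the somata. As a share of the subunit's counts, Rps15a took 2.71% ± 1.37 in dendrites and 4.87% ± 3.63 in somata, Rps13 2.62% ± 2.44 and 4.03% ± 3.24, Rps3 4.89% ± 3.55 and 7.21% ± 3.69, and Rpsa 8.74% ± 5.07 and 6.37% ± 3.25 (SD, n = 16 each). Each of these differences was smaller than the larger of its SDs. Those SDs are taken over libraries without the pairing, so they do not test the differences.

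The reverse case was Rps27, a zinc-finger protein of the platform side. It had 288 counts (201 CPM) in the dendrites of neuron 28 and 0 counts in the soma. Against a limit of 3 counts (0.378 CPM) in that soma library the ratio of CPM was 531. That limit covers counting error only, and loss of RNA before sequencing was not tested, so it bounds no difference between the compartments. Elsewhere Rps27 ran up to 923 CPM in dendrites and 391 CPM in somata, with medians of 127 and 91.6.

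**Figure D4:**
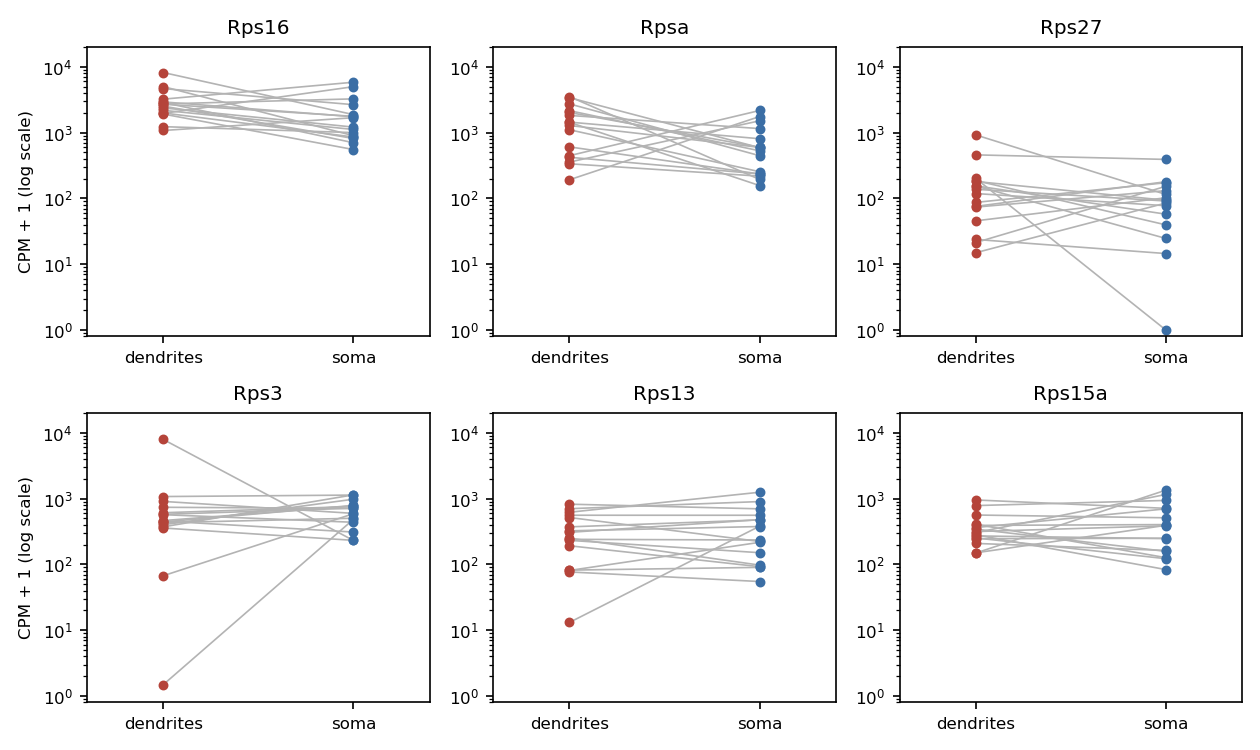
CPM + 1 on a log axis for Rps16, Rpsa, Rps27, Rps3, Rps13 and Rps15a in the dendrites (left) and soma (right) of 16 neurons, with a line joining the 2 libraries of a neuron. Single lines run far from the rest in Rps3 (0.49 CPM in the dendrites of neuron 14), in Rps13 (12.1 CPM in the dendrites of neuron 22) and in Rps27 (0 in the soma of neuron 28).

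Neurons differed widely in how the subunit was shared out. The median difference over the 28 members, dendrites minus soma on the log2 CPM scale, averaged 0.65 ± 1.32 over 16 neurons and 0.39 ± 0.84 without neuron 20 (SD, n = 15). It was above 0 in 13 neurons, and negative in neuron 9 (-0.66), neuron 11 (-1.67) and neuron 18 (-0.97). In neuron 20 it was 4.56 after TMM scaling and 2.36 with library totals, and 27 of 28 members were higher in dendrites. In neurons 11 and 18, 3 of 28 members each were higher in dendrites, and in neuron 9 there were 8. In this way most members of a neuron lay on 1 side of 0, while the interquartile range of the members within a neuron was 0.81 to 2.21 (median 1.71). The median over members exceeded the median over all tested genes in 11 of 16 neurons. In neuron 20 the astrocyte markers summed to 258 CPM in dendrites, against a median of 323 CPM over dendrite libraries. In its soma they summed to 65.5 CPM, against a median of 201 CPM over soma libraries. The dendrites of neuron 20 held the highest dendrite value of 16 members.

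Large subunit genes gave a median fold change of 0.47, with 44 of 48 tested members above 0. Neuron by neuron, the medians of both subunits followed each other. The Spearman correlation was 0.84 over 16 neurons, or 0.81 without neuron 20, and the Pearson correlation was 0.96, or 0.90 without it. These points share libraries, depth and scaling. The small minus the large subunit median was 0.14 ± 0.39 (SD, n = 16), between -0.46 and 1.00 and positive in 10 neurons. The mean difference between the subunits was smaller than its SD and was not tested. Rpl13a (0.88 ± 0.41) and Rplp0 (0.96 ± 0.47), a protein of the large subunit's stalk, both had higher values in the dendrites of 13 neurons (edgeR adjusted p = 0.999).

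**Figure D5:**
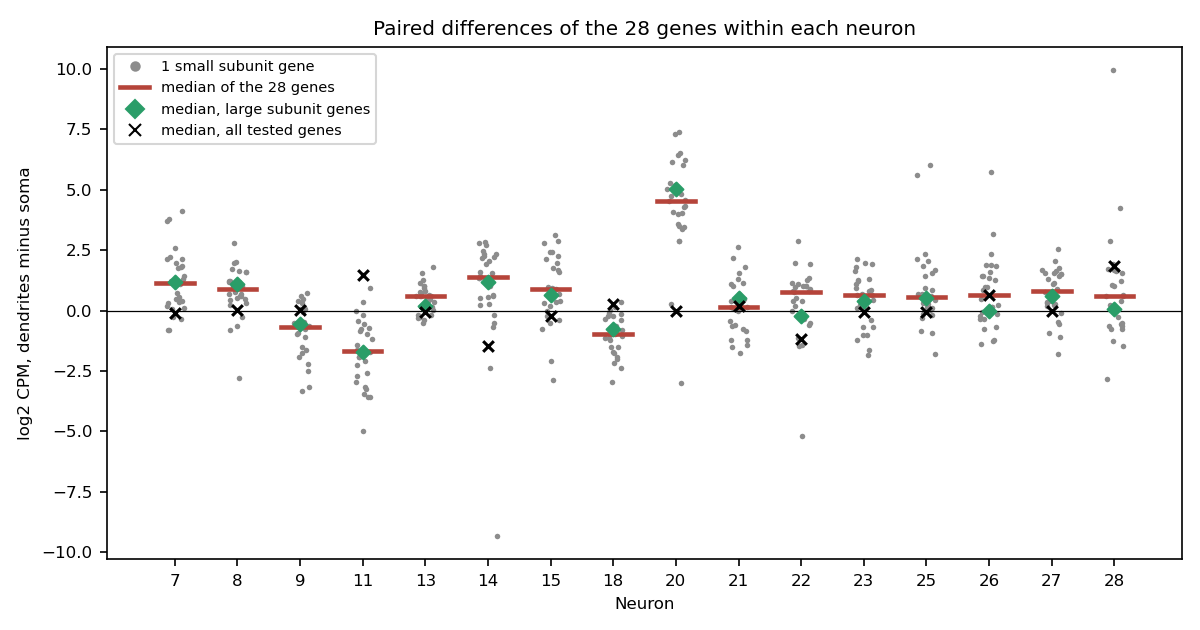
Paired difference of log2 CPM, dendrites minus soma, of the 28 genes (grey points) in each of 16 neurons. Red bars are the median of the 28 genes, green diamonds the median of the large subunit genes and crosses the median of all tested genes. The bars lie above 0 in 13 neurons and below it in neurons 9, 11 and 18, and the diamonds follow them.

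Members also varied together within a compartment. The median Spearman correlation over the 378 pairs of members was 0.41 across dendrite libraries and 0.29 across soma libraries, against 0.056 and 0.044 over all pairs of tested genes. Without neuron 20 it was 0.28 in dendrites. Between members and large subunit genes it was 0.37 in dendrites and 0.26 in somata. Rps15 followed the other members most closely in dendrites (0.92 with their median) and Rps3 least (-0.12). Between the dendrites and the soma of the same neurons, a member's levels had a median Spearman correlation of 0.11, from -0.15 for Rpsa to 0.60 for Rps13. The points of each correlation share libraries, depth and scaling.

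The spread between neurons was broad for each member. Among the 25 members with ample counts, the coefficient of variation of CPM ran from 57.6% to 195% in dendrites (median 83.7%) and from 41.9% to 111% in somata (median 74.1%). It was higher in dendrites for 17 of 25, and without neuron 20 for 12 of 25, with a dendrite median of 69.6%. The share of the subunit bore little relation to depth, with a Spearman correlation of -0.038 with gene counts across dendrites and 0.059 across somata.

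Genes outside the list that were most like it were mostly ribosomal too. Ranked by Pearson correlation with the members' mean log2 CPM over 32 libraries, the first 10 included Rpl41 (0.920), Eef1g (0.892), Rpl35 (0.880), Rpl13a (0.869), Rpl31 and Rpl19 (0.854 each), Rpl36 (0.841), and Ybx1-ps3 and Eef2 (0.840 each). Of the 10, 6 code for large subunit proteins, while Eef1g and Eef2 are elongation factors. The correlations are descriptions over libraries that share depth and scaling.

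Gnb2l1 had a level like those of the members, with a median CPM of 413 in dendrites and 359 in somata. Rps27l, a paralog of Rps27, had a fold change of -1.71 ± 1.95 on low counts, under 10 in 18 of 32 libraries, and Rps4y2 was under 10 counts in 32 of 32.

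Factors that build, load and regulate the subunit were split in direction. Of 22 tested assembly factors 12 were above 0 and 10 below (median 0.11), and 0 passed the adjusted threshold. Imp4, a component of the complex that processes the small subunit's RNA, had a fold change of -4.28 ± 1.75 with higher values in the dendrites of 3 neurons. Pno1, which binds the maturing subunit near its RNA's cleavage site, had one of -5.31 ± 2.34, higher in dendrites in 4 (edgeR adjusted p = 0.999 for both). Levels in dendrites were low, with a median of 2.60 CPM for Imp4 and 0.115 CPM for Pno1, against 49.2 and 32.8 CPM in somata. Of 21 initiation factors 9 were above 0 and 12 below (median -0.32), with 0 called. Eif2s3x, a subunit of the factor that brings the initiator tRNA, gave -1.58 ± 0.85, and Eif5, which activates that factor's GTPase, gave -1.24 ± 0.69.

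Among 12 tested regulators of TOP mRNA translation, 5 were above 0 and 7 below (median -0.18), with 0 called. Eif4e, the cap-binding protein, had a fold change of -2.42 ± 1.24, with a median of 33.8 CPM in dendrites and 204 CPM in somata. Eif4ebp2, its main inhibitor in brain, gave 3.40 ± 2.32, with medians of 58.7 CPM in dendrites and 0.023 CPM in somata. Neither passed the test (edgeR adjusted p = 0.999 for both), and the SE of each was larger than that of any of the 28 members.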

How the data were processed

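The authors deposited whole-number counts per gene for each of 32 libraries, 17216 genes and 92 spike-in rows, here taken as raw counts. Build rn6 is named per the submitters' processing notes. Not given in the sources used here are the aligner, the annotation, the strand setting and what was done with reads of several possible origins. Spike-in rows entered neither library sizes nor tests. Groups came from the labels, and the series text states that a number marks 1 cell, so the neuron was a block. As a check, the centred profiles of both libraries of a neuron correlated by 0.0678 on average (Spearman), those of different neurons by -0.000544, and 4 of 16 neurons exceeded 0.1.

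The counts were fitted with edgeR 4.0.16 under R 4.3.3 (filterByExpr with a minimum count of 10, TMM, glmQLFit robust, glmQLFTest). The filter left 4916 genes, 28 members among them, with 91.8% to 97.2% of a library's gene counts. Benjamini-Hochberg adjustment ran over all tested genes, and an adjusted p under 0.05 was called. The common biological coefficient of variation was 1.61. SE is the size of the log2 fold change divided by the root of the F statistic. Paired differences of log2 CPM (prior count 2) went through exact sign-flip permutation tests (two-sided), which cannot give a p below 3.05e-05 with 16 neurons. P-values measure the spread between these neurons, some of which may share a culture. The tests were tested on simulated data. Markers of cell types and gene lists were described by counts and medians. Other marker sets had median log2 fold changes of 2.14 for 2 inhibitory neuron genes, 2.01 for 2 endothelial, mural and fibroblast genes and -0.069 for 3 pyramidal genes, with 1 oligodendrocyte gene at -1.92 and 1 dividing cell gene at -1.47. Values in full were to go to the 4 members with the smallest edgeR p, the 4 with the smallest departure p and the 3 highest and 3 lowest by level. Outside the members, the 10 most similar genes and the 2 genes per list with the smallest p were named, except some that are not reported here. The order per length that had been planned was not made, for want of lengths. Members and lists were chosen with earlier results of these data known. Alternatives were other scalings, filters, tools (DESeq2 1.42.0, limma 3.58.1), prior counts, reference sets and neurons left out. Promoter windows came from RefSeq (GRCr8). Python 3.11.15 and scipy 1.17.1 were used.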

Additional observations from a re-analysis of the deposited data

How the results depend on the processing

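The count of members called stayed at 0 under the settings tried, and the median log2 fold change over members was positive in each: 0.50 with spike-in totals (all genes -0.053 against 0.13), 0.65 with library totals, 0.67 with DESeq2 size factors, 0.61 with limma-voom, 0.62 with 10 counts in 28 libraries (25 members), 0.50 without neurons 20 and 25, 0.66 without neurons 7, 8 and 9, and 0.51 to 0.78 leaving out each neuron. Without the replicate block, which ignores the pairing, it was 1.72 with 22 members at an unadjusted p under 0.05, Rps3 was 2.44, Rps13 0.085 and Rps15a -0.16. Genes called over the whole table were 1 with no filter and 406 with DESeq2. Rps15a, at 0.02, changed sign with no filter (-0.012), library totals (-0.043), spike-in totals (-0.091), limma-voom (-0.12), without neurons 7, 8 and 9 (-0.17) and in 9 of 16 fits leaving out a neuron (-0.11 to 0.20), and Rps13 in 1, without neuron 22 (-0.26 to 0.064). The median correlation of members across dendrites was 0.28 without neuron 20, a setting chosen after seeing the data, against 0.41. The causes were not tested. The smallest adjusted p of a departure was 0.184, for Rps13 without neuron 11. Depth limits Rps6, Rps9 and Rps19 most.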
